A study of Mus musculus with 24 samples.

Results

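The melanoma cells and the CD8 T cells of the control arm of this series were compared as whole transcriptomes: 3 RNA-seq libraries of control tumour cells against 2 libraries of T cells that had been placed beside control tumour cells. The libraries were chosen by their labels, 5 of the 24 samples, and compared over the 24421 gene symbols listed in both the tumour and the T cell count table. The series as a whole addressed knockdown of Fto, an RNA demethylase gene, in the tumour cells, and none of the 5 libraries came from a knockdown or from T cells beside one. The tumour cells were B16-OVA, a mouse melanoma line of C57BL/6 background that makes ovalbumin, with the control hairpin shNC, grown in DMEM under puromycin. The T cells had the OT-I genotype on a C57BL/6 background, so that their receptor recognises an ovalbumin peptide. They were purified as naive cells, kept for 8 h with shNC B16-OVA cells in RPMI with IL-2, and then sorted. T cells without tumour cells were not analysed here, and the labels do not say whether the shNC line was a clone, how many mice gave T cells or how the sort gate was set. Nor do they state whether libraries within a group were made from different cultures or mice. The p-values here therefore reflect the scatter of these particular libraries, and that scatter may be technical.

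Melanocytes and melanoma cells owe their colour to the melanosome, an organelle whose scaffold, enzymes and ion transporters are switched on by the transcription factors MITF and SOX10. A CD8 T cell reads peptides on class I molecules through a receptor that signals by the CD3 chains and the kinases LCK and ZAP70. Once triggered, it transcribes immediate-early factors and cytokines within hours, and copies its DNA and divides later.

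The tumour libraries held 13413981 to 17406625 counts and the T cell libraries 2628158 and 6567685. Levels are given as CPM, the library-scaled count unit, after TMM scaling, and differences as log2 fold changes, tumour minus T cells, from edgeR's quasi-likelihood test with Benjamini-Hochberg adjustment over 13590 tested genes. Of these, 5274 (38.8%) were higher in tumour cells and 5486 (40.4%) higher in T cells at an adjusted p under 0.05. Differences of at least 4-fold numbered 1941 (14.3%) and 2856 (21%). With 79.2% of genes called in either direction, a count of list members is to be read against these shares. The median log2 fold change of all tested genes was -0.02, and 0.21 when libraries were scaled by their totals alone. Cell type, deposited table, culture and depth all differ between the groups and cannot be told apart. The T cell libraries also held more signal at low levels. Of 1125 olfactory receptor symbols, genes that neither cell type is known to use, 13.1% and 14.5% had a count there and 0.356% to 0.533% in the tumour libraries. Of the 2856 genes at least 4-fold higher in T cells, 1530 had means from 1 to 10 CPM there and 1326 reached 10 CPM. On the tumour side 1255 of 1941 reached 10 CPM.

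**Figure D1:**
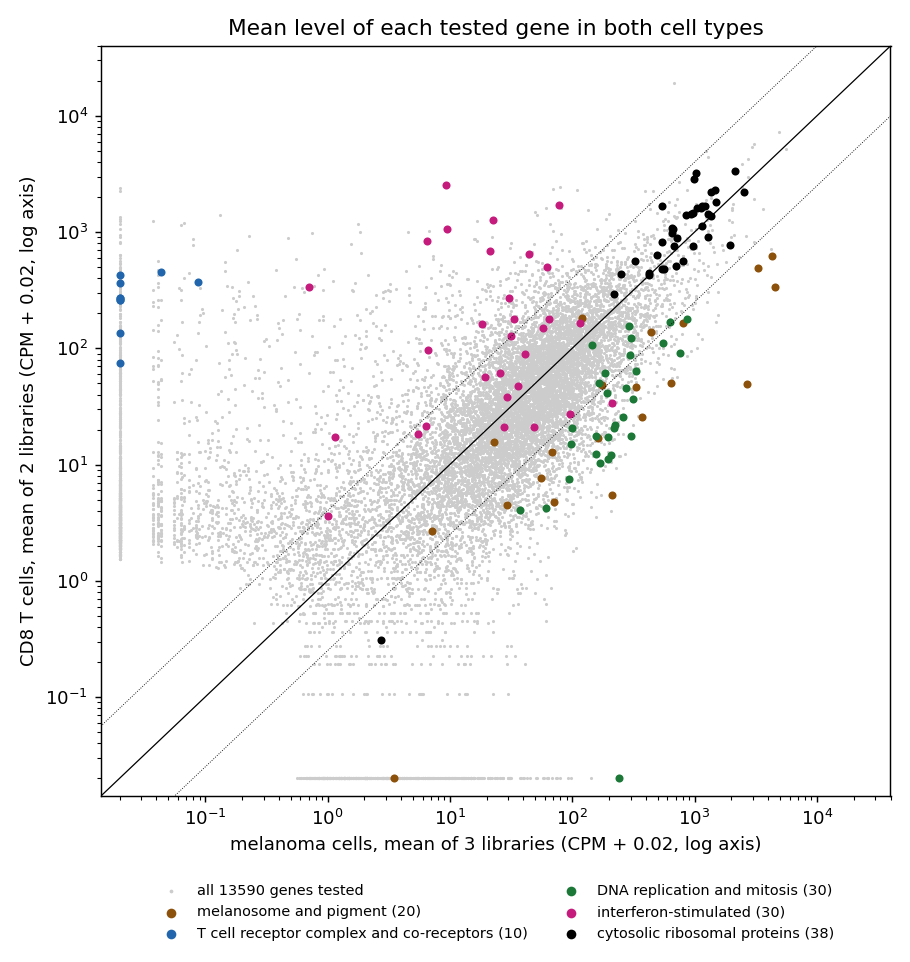
Mean level of each of the 13590 tested genes in melanoma cells (horizontal, 3 libraries) and CD8 T cells (vertical, 2 libraries), in CPM plus 0.02 on log axes. Points on the left edge had no count in any tumour library and those on the lower edge none in either T cell library; the solid line marks equal levels, the dotted lines 4-fold differences, and colours 5 gene lists named in the key.

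The marker genes followed the labels, with tumour markers also counted in the T cell libraries. Sox10, which encodes a neural crest transcription factor (chromosome 15, 79154913 to 79164490, GRCm38.p6), gave 727, 723 and 692 CPM in the tumour libraries and 46.5 and 66.4 CPM in the T cell libraries, a log2 fold change of 3.62 (SE 0.144, adjusted p = 1.73e-10). Mitf, the master regulator of pigment genes (chromosome 6, 97807002 to 98021360), gave 342, 378 and 321 CPM against 56.8 and 77.5 CPM (2.33, SE 0.139, adjusted p = 8.9e-09). The groups did not overlap for either gene, yet neither was absent from the T cell libraries. Cd8a, the CD8 alpha chain (chromosome 6, 71373427 to 71379171), had no count in any tumour library and 425 and 429 CPM in the T cell libraries. Cd3e, a signalling chain of the T cell receptor (chromosome 9, 44998735 to 45009663), had none in the tumour libraries and 251 and 295 CPM in the T cell libraries. Against a floor of 3 counts over the tumour group, Cd8a was at least 6920-fold and Cd3e at least 4559-fold higher in T cells (adjusted p = 1.59e-12 and 6.03e-12). Fto itself stood at 98.8, 99.7 and 84.4 CPM in tumour cells and 41.5 and 57.5 CPM in T cells (0.89, SE 0.146, adjusted p = 0.000116).

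**Figure D2:**
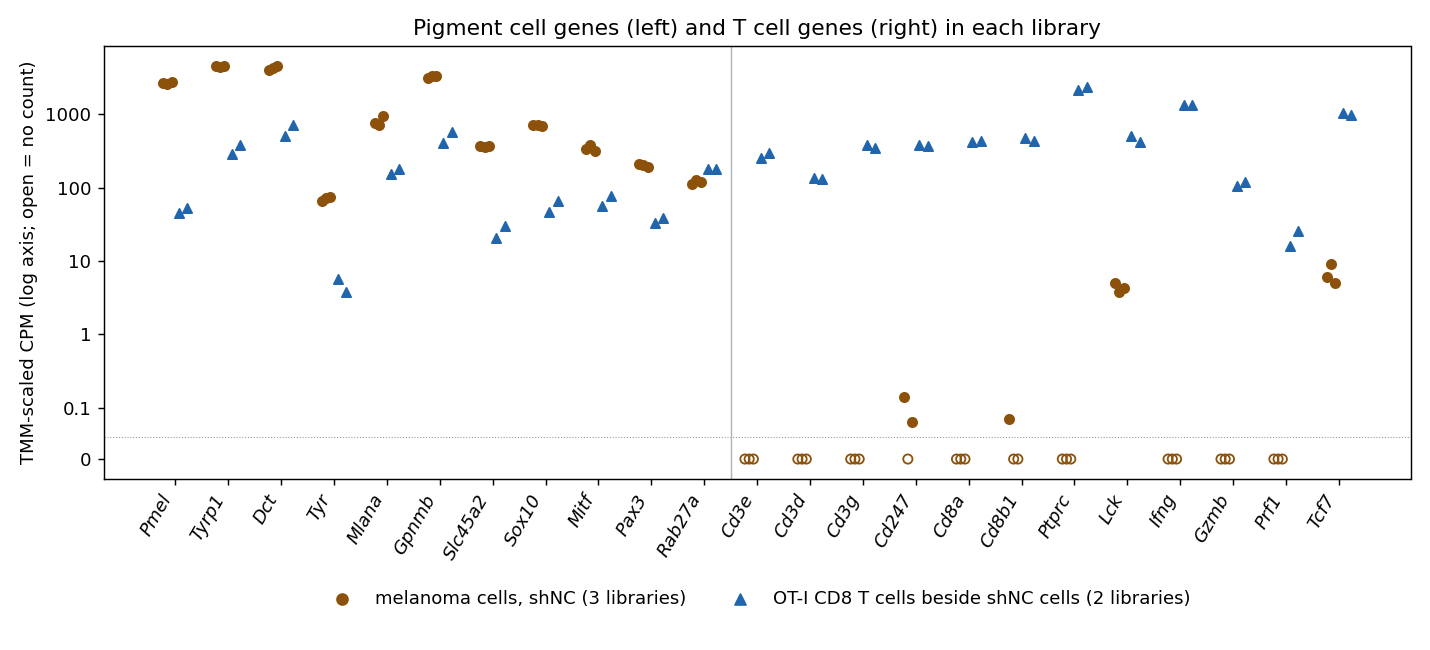
Level of pigment cell genes (left of the line) and T cell genes (right) in each library, in TMM-scaled CPM on a log axis; circles are the 3 melanoma libraries, triangles the 2 T cell libraries, and open marks on the lowest line had no count. The pigment cell genes have counts in both cell types, and most of the T cell genes have none in any melanoma library.

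Of 20 melanosome and pigment genes, all tested, 19 were higher in tumour cells, 16 of these at least 4-fold, and 1 was higher in T cells. The median log2 fold change of the list was 2.80. Pmel, whose product forms the fibrils on which melanin is laid down, gave 2705, 2635 and 2747 CPM in tumour cells and 44.8 and 52.9 CPM in T cells (5.76, SE 0.138, adjusted p = 1.55e-12). The enzymes of melanin synthesis shared that direction. Tyr, the rate-limiting tyrosinase, gave 67.0, 71.5 and 74.0 CPM against 5.76 and 3.76 CPM (4.01, SE 0.202). Tyrp1, which acts later in the same pathway, gave 4619, 4436 and 4632 CPM against 291 and 384 CPM (3.75, SE 0.143). Dct, the dopachrome tautomerase, gave 4085, 4290 and 4626 CPM against 507 and 728 CPM (2.81, SE 0.156). In each case the lowest tumour library lay several-fold above the highest T cell library. The ion transporter genes Slc24a5 (5.15) and Slc45a2 (3.78) had wide gaps too, and Slc24a4, at 3.07 to 3.75 CPM in tumour cells, had no count in T cells. Mlana, a melanosome protein used as a melanoma antigen, stood at 770.4, 709.6 and 952 CPM against 153 and 179.9 CPM (2.28), and Gpnmb, a relative of Pmel, at 3175, 3294 and 3359 CPM against 409 and 576 CPM (2.73). The members of the melanosome transport complex parted. Mlph, the linker melanophilin, and Myo5a, the motor, were higher in tumour cells (log2 fold changes of 3.69 and 1.64). Rab27a, the GTPase that anchors them and that in T cells serves the release of lytic granules, was lower in tumour cells, at 114, 129 and 118 CPM against 179.7 and 183 CPM (-0.59, SE 0.0980, adjusted p = 0.000121). Oca2 (2.02, adjusted p = 0.0276) and Hps4 (0.49, adjusted p = 0.0464) passed narrowly. Oca2 had 5.35 and 0 CPM in the T cell libraries, and its call ended without T cell replicate 2 (log2 fold change 0.41) and without tumour replicate 1 (1.84) or 3 (1.91). That of Hps4 ended without T cell replicate 1 (0.30) and without tumour replicate 1 (0.46) or 2 (0.40).

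The promoters of the 3 enzymes are shown because each carries the M-box core, the element TCATGTG through which MITF acts on pigment genes, and each was open in the control tumour cells. They are RefSeq windows of GRCm38.p6, from 250 bases before the start of transcription to 50 after it, 5′ to 3′ on the strand of the gene, with the M-box core of either strand in capitals. The Tyr window is chr7:87493463-87493762, minus strand, the Tyrp1 window chr4:80833963-80834262, plus strand, and the Dct window chr14:118052197-118052496, minus strand.
Tyr: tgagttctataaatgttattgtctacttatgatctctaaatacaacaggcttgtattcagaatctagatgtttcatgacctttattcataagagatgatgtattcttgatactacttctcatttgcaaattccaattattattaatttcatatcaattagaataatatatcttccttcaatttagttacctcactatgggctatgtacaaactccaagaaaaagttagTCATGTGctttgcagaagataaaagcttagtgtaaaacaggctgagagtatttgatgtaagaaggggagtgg
Tyrp1: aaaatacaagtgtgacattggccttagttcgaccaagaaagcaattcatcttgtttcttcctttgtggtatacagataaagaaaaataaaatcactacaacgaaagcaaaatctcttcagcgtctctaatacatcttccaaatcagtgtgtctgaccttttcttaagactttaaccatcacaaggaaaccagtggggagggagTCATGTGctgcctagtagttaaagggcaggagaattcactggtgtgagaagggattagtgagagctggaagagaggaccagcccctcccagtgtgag
Dct: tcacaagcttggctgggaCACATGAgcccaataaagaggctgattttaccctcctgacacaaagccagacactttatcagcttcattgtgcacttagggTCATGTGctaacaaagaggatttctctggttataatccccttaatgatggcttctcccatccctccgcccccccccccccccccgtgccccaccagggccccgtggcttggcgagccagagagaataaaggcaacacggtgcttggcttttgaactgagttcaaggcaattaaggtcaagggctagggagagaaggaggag
Counted from the start of transcription, the match began at -22 in Tyr, at -47 in Tyrp1 and at -232 and -151 in Dct, where the first is on the other strand. Of the 14 pigment genes with a window, 5 (35.7%) held the core, the others being Slc24a5 and Mc1r, against 2.87% of all 20792 windows of symbols in the tables. The list share takes 1 window a gene. Over all windows, the core was in 3.44% for genes at least 4-fold higher in tumour cells and 3.14% for those higher in T cells. It was in 4.98% for genes at 10 CPM or more in T cells with no tumour count, and in 0 of 9 regulator windows. A match is a description of the letters and not a bound site. ATAC-seq, which marks open chromatin by transposase insertion, had a peak over all 3 windows in each of the 3 shNC tumour libraries. The authors' fold enrichment was 9.02, 7.33 and 8.18 at Tyr, 13.4, 14.0 and 13.9 at Tyrp1, and 12.9, 13.1 and 13.8 at Dct, so the peak at Tyr was the weakest of the 3 in every library.

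Among 15 melanocyte regulators, 11 were tested, and 9 of these were higher in tumour cells, 4 of them at least 4-fold, and none in T cells, with a median of 1.96. Besides Sox10 and Mitf these included Pax3, which acts with SOX10 upstream of MITF (208, 205 and 193 CPM against 32.9 and 38.9 CPM, 2.46). Tfap2a, a factor that acts beside MITF, gave 153, 155 and 132 CPM against 19.3 and 37.0 CPM (2.27). The MAP kinase phosphatase Dusp4 (1.96) and the ETS factor Etv5 (1.69), both known targets of MAP kinase signalling, and Sox9 (1.99) were also higher. Differences were small for the neuregulin receptor Erbb3 (0.46, adjusted p = 0.00742) and for the crest factor Zeb2 (0.34, adjusted p = 0.0143). The Zeb2 call ended without T cell replicate 1 (0.25), without tumour replicate 1 (0.31) or 2 (0.25) and with DESeq2 (0.26). The receptor genes Kit and Ednrb and the crest factor Foxd3 had no count in any tumour library. Kit was counted in T cell replicate 2 only, at 16.4 CPM.

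Of 9 tested neural crest and Schwann cell genes, 8 were higher in tumour cells, 2 at least 4-fold, with a median of 1.21. Mbp, a myelin protein gene, gave 905, 928 and 1009 CPM against 228 and 247 CPM (1.99), and S100b, a calcium-binding marker of melanoma, 62.1, 67.3 and 84.4 CPM against 4.94 and 12.6 CPM (2.83). Both were separate between the groups in every library. Of 21 tested matrix, adhesion and contractile genes, 17 were higher in tumour cells, 10 of them at least 4-fold, and 2 in T cells, with a median of 1.91. Among them were the integrin chain Itgb5 (4.17), the protease inhibitor Timp2 (3.12), the laminin chain Lamc1 (2.76), the matrix protein Sparc (2.66) and Mcam, a melanoma cell adhesion molecule (2.20).

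Genes of the pigment and regulator lists were also counted in the T cell libraries. Summed over the 20 pigment genes, the T cell libraries reached 10.5% and 13.7% of the tumour mean, and over the 15 regulators 19% and 25.5%. The share varied by gene: over 25 such genes at 10 CPM or more in tumour cells, the T cell mean was 1.81% of the tumour mean for Pmel, 15.3% at the median and 151% for Rab27a. In the other direction almost nothing was counted. The 10 T cell receptor complex genes summed to 0.210, 0 and 0.0646 CPM in the tumour libraries and to 2913 and 2885 CPM in the T cell libraries. Whether the T cell library counts came from tumour RNA or from the T cells themselves was not tested, so these shares do not measure tumour RNA. In such bulk samples, fewer cells of a type and less RNA per cell cannot be told apart. The part of RNA from the other cell type in the differences was not tested.

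The T cell receptor complex and its co-receptors were counted almost only in T cells. Of 13 genes on that list 10 were analysed, and all 10 were at least 4-fold higher in T cells, and 8 had no count in any tumour library. The others, Trac, Trbc1 and Trbc2, encode constant regions of the receptor's own chains. They were not among the shared symbols, so those chains were not measured here. The chains Cd3d (137 and 134 CPM) and Cd3g (379.6 and 349 CPM), the co-receptors Cd2 (271 and 268 CPM) and Cd28 (60.1 and 89.8 CPM), and the signal-tuning receptors Cd5 (267 and 256 CPM) and Cd6 (265 and 258 CPM) were at 0 in tumour cells, like Cd3e and Cd8a. The exceptions were Cd247, the zeta chain, with 3 counts over the tumour libraries and 382 and 366 CPM in T cells, a ratio of 5999 (exact 95% interval 2051 to 29107), and Cd8b1, the CD8 beta chain, with 1 count and 476 and 441 CPM. The interval covers counting error only. With the genes at 0 set at their bound, the median log2 fold change was -12.12.

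Signalling genes below the receptor had the same direction but were less one-sided. They summed to 357.6, 349.2 and 316.2 CPM in the tumour libraries and 10000 and 10048 CPM in the T cell libraries. All 23 proximal signalling genes were higher in T cells, 21 at least 4-fold, and 8 had no count in tumour cells. Ptprc, the phosphatase CD45 that marks all leukocytes, gave 2157 and 2382 CPM and no count in tumour cells, at least 37463-fold higher. Lck, the kinase held by CD8, gave 505 and 420.3 CPM in T cells but also 5.03, 3.79 and 4.33 CPM in tumour cells (-6.73, SE 0.141, adjusted p = 5.77e-13), so it was not at 0 there. Zap70, the kinase recruited to the CD3 chains, had 1 count over the tumour libraries and 271 and 247 CPM in T cells. The adaptor gene Fyb gave 1.44 to 2.24 CPM in tumour cells against 1034 and 970.0 CPM (-9.13).

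Of 19 tested T cell transcription factors, 18 were higher in T cells, 17 at least 4-fold. Those at 0 in tumour cells included the chromatin organiser Satb1 (1248 and 1229 CPM) and Lef1 (522 and 560.4 CPM). Tcf7, the relative of Lef1 in WNT signalling and a mark of naive and memory cells, kept 6.01, 9.18 and 5.10 CPM in tumour cells against 1046 and 981 CPM (-7.20, SE 0.179). Irf4, which rises with receptor signal strength, gave 901 and 953 CPM against 0.0699 to 0.427 CPM (-11.93). The exception, named after its value was seen, was Id2, an inhibitor of basic helix-loop-helix factors, with 163, 156 and 171 CPM in tumour cells and 54.7 and 88.3 CPM in T cells (1.14, adjusted p = 2.31e-05).

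Cytokine genes stood among the largest differences on the T cell side. All 18 tested cytotoxic molecules and cytokines were at least 4-fold higher in T cells, 14 of the 20 on the list had no count in tumour cells, and the median with such genes at their bound was -10.67. Ifng, the cytokine interferon gamma, gave 1357 and 1364 CPM and no count in tumour cells. The chemokines Ccl3 (968 and 915 CPM) and Ccl4 (1079 and 1048 CPM) were likewise at 0 there, and Tnf gave 238 and 199 CPM against at most 0.160 CPM. The granzyme gene Gzmb (106 and 119.8 CPM) and the pore former Prf1 (16.0 and 25.6 CPM), named after their values were seen, were at 0 in tumour cells too. The 12 largest differences on this side were those of Gbp4, Ptprc, Ifng, Dock2, Satb1, Cd69, Ccl4, Ccl3, Gbp9, the granule proteoglycan Srgn, the interferon-induced GTPase Tgtp1 and the phosphatase Ptpn22. All 12 had no count in tumour cells, with bounds from at least 10429-fold for Ptpn22 to at least 38074-fold for Gbp4.

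Of 22 activation and inhibitory receptors, 20 were higher in T cells, each at least 4-fold. Cd69, induced within hours of triggering, gave 1166 and 1187 CPM, Il2ra 416 and 418 CPM and the costimulatory receptor Tnfrsf9 177 and 222 CPM. Cd69 and Il2ra, the high-affinity IL-2 receptor chain, were at 0 in tumour cells. Cd44, a hyaluronan receptor that both lineages use, was the exception in direction and is named after its value was seen: it gave 218, 227 and 192 CPM in tumour cells and 151 and 169.9 CPM in T cells (0.40, SE 0.109, adjusted p = 0.00511). At the same time 13 of 14 naive and memory genes were higher in T cells, among them Il7r (471 and 530.4 CPM), the egress receptor S1pr1 (228 and 277 CPM) and its regulator Klf2 (378 and 336 CPM against 2.46 to 3.84 CPM, -6.78). Genes of the naive state and of early activation were counted in the same T cell libraries.

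Of 16 cytokine receptor genes of lymphocytes all 16, and of 22 leukocyte adhesion, migration and cytoskeleton genes all 22, were at least 4-fold higher in T cells. Il2rg, the common gamma chain, gave 489.5 and 566 CPM and no count in tumour cells, and Il2rb 195 and 193 CPM against at most 0.214 CPM. Dock2, which activates RAC in migrating lymphocytes, gave 1315 and 1274 CPM and no count in tumour cells, at least 20804-fold higher. Lcp1, the leukocyte plastin, gave 1326 and 1458 CPM against 0 to 0.267 CPM (-13.34, SE 0.236).

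The windows of Cd3e and Gzmb are shown as T cell promoters without a peak in any of the 3 shNC tumour libraries. The Cd3e window is chr9:45009562-45009861, minus strand, with the ETS motif CAGGAAGT of either strand in capitals. The Gzmb window is chr14:56262285-56262584, minus strand, with the RUNX motif TGTGGTT of either strand in capitals. Both factor families are known to act in T cells.
Cd3e: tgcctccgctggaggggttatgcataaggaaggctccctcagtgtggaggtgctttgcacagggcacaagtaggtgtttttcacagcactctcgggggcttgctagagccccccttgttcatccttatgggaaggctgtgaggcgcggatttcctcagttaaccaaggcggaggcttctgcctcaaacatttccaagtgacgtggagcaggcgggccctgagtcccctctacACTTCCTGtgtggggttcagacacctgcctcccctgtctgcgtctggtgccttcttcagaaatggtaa
Gzmb: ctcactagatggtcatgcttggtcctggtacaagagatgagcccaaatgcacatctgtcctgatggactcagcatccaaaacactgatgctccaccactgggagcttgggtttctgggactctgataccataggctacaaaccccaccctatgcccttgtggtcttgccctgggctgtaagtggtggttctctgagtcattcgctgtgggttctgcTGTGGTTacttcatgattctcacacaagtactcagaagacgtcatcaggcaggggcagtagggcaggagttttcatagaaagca
The match began at -18 in Cd3e and at -34 in Gzmb. The ETS motif was in 2 of 6 windows of the receptor complex list (Cd3e and Cd247) and in 3.31% of all windows. The RUNX motif was in 4 of 17 windows of the cytotoxic list and in 34 of 241 windows (14.1%) of genes at 10 CPM or more in T cells with no count in tumour cells, against 4.51% of all windows. Among genes at least 4-fold higher it was in 5.84% of windows on the T cell side and 2.42% on the tumour side. It was not confined to T cell lists, with 2 of 14 pigment windows (14.3%) and 2 of 9 melanocyte regulator windows (22.2%). The RUNX motif begins with the letters TGTG that end the M-box core, so the matches of these motifs can overlap.

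Open chromatin at promoters in the control tumour cells differed between gene sets defined by the RNA. Of genes with a window at 10 CPM or more in tumour cells, 6510 of 6834 (95.3%) had a peak in all 3 shNC libraries. The share was 83.2% for genes at least 4-fold higher in tumour cells, 87.3% for genes without a call and 38.2% for genes at least 4-fold higher in T cells. It was 4.40% (8 of 182) for genes at 10 CPM or more in T cells with no count in tumour cells, and 7.69% (14 of 182) where a peak in at least 1 library was enough. None of the 6 receptor complex windows (1 of 6 with 1 kb on either side of the start) and 1 of 17 cytotoxic windows, that of Tnf, had a peak in all 3 libraries. Of the 14 pigment windows 10 did, and the 4 that did not were those of Oca2, Slc24a4, Mc1r and Hps4, although Mc1r, the melanocortin receptor, gave 161, 181 and 186 CPM. With 1 kb on either side of the start the pigment share was 92.9%. The peak at Mitf had a fold enrichment of 36.2, 36.2 and 35.9. The peak lists came from tumour cells, and the same promoters in T cells were not analysed here.

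**Figure D3:**
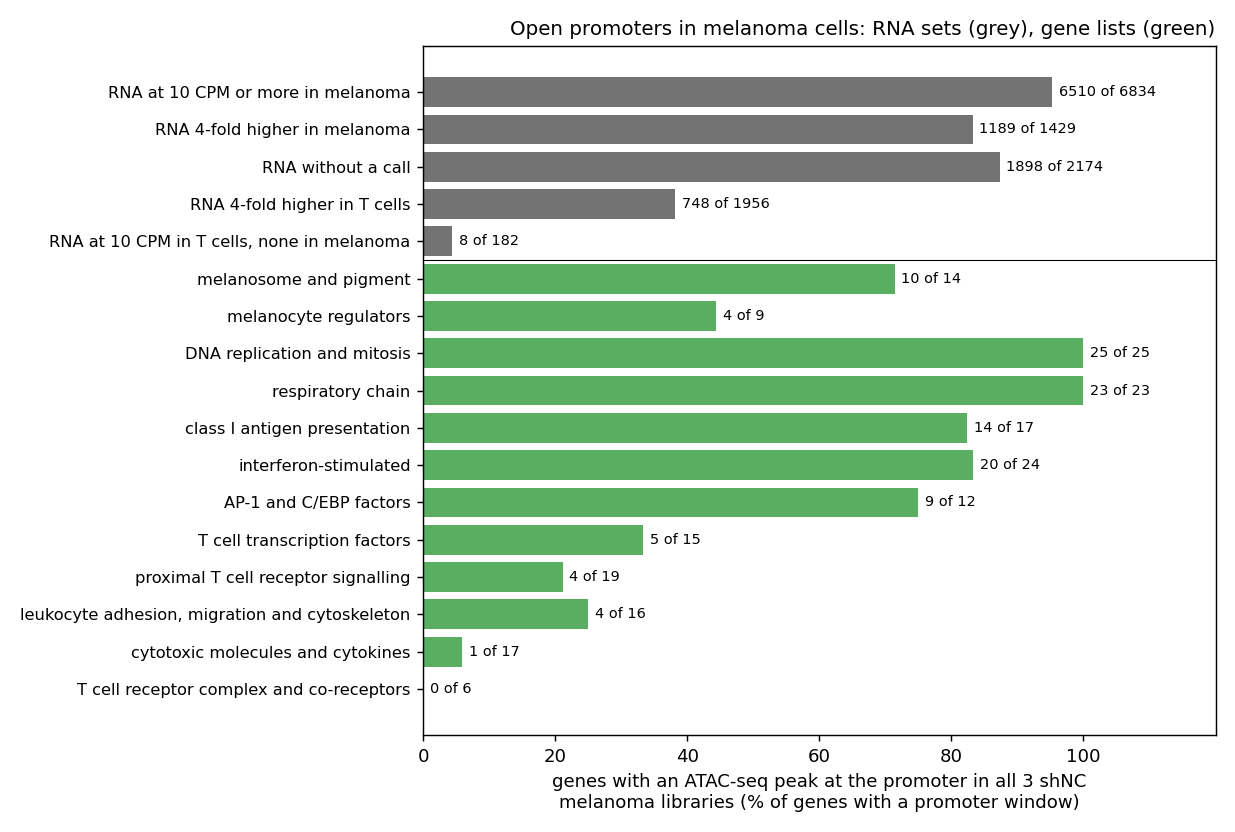
Share of genes whose promoter window had an ATAC-seq peak in all 3 shNC melanoma libraries, for sets defined by the RNA comparison (grey) and for gene lists (green), with the number of open and of all windows beside each bar. The share is 95.3% for genes at 10 CPM or more in melanoma cells, 4.40% for genes counted in T cells and not in melanoma cells, and 83.3% for interferon-stimulated genes, near the 80.9% of all tested genes.

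Most tested class I and interferon-stimulated genes were higher in T cells. Of 18 tested class I antigen presentation genes, 16 were higher in T cells, 15 at least 4-fold, with a median of -4.36. Nlrc5, the activator of class I genes, gave 4.68, 5.18 and 3.75 CPM in tumour cells and 988 and 997 CPM in T cells (-7.76, SE 0.134). Tap1, a chain of the peptide transporter, gave 11.6, 9.55 and 8.08 CPM against 423 and 429 CPM (-5.45). Its partner Tapbp (-4.32) and the proteasome activator Psme1 (-4.15) went the same way. B2m, the light chain of class I molecules, gave 138, 122 and 147 CPM against 1386 and 1725 CPM (-3.52). H2-K1, the heavy chain that presents the OT-I peptide, gave 72.4, 73.0 and 99.2 CPM against 1717 and 1521 CPM (-4.31). Near-identical copies exist for the heavy chain genes, and the value of a single member such as H2-K1 or H2-Q4 (-6.43) is uncertain. The chaperones Calr (1.14) and Pdia3 (0.70), which also fold other proteins of the endoplasmic reticulum, were higher in tumour cells and are named after their values were seen.

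Of 30 interferon-stimulated genes, 26 were higher in T cells, 15 at least 4-fold, with a median of -2.01. Gbp2, a guanylate-binding protein, gave 7.82, 9.45 and 10.7 CPM against 2346 and 2742 CPM (-8.09, SE 0.149), and Irf1, a factor induced by interferon gamma, 25.5, 19.8 and 22.1 CPM against 1293 and 1263 CPM (-5.84). Gbp7 (-6.81), Gbp3 (-5.01) and the nucleic acid sensor Zbp1 (-8.88) went the same way. Ifi27 (2.65), Bst2 (1.80) and Ifitm3 (1.14), named after their values were seen, were higher in tumour cells. In the tumour cells 14 of 17 class I windows (82.4%) and 20 of 24 interferon-stimulated windows (83.3%) were open, shares near the 80.9% of all tested genes. The authors' fold enrichment was 21.6, 19.0 and 20.1 at B2m and 22.8, 24.3 and 24.3 at H2-K1. Gbp2 had no peak in any of the 3 libraries. Its window (chr3:142620413-142620712, plus strand) and that of B2m (chr2:122147437-122147736, plus strand) are shown to set a closed beside an open promoter that carry the same interferon response motif, GAAA followed by any 2 bases and GAAA, of either strand in capitals.
Gbp2: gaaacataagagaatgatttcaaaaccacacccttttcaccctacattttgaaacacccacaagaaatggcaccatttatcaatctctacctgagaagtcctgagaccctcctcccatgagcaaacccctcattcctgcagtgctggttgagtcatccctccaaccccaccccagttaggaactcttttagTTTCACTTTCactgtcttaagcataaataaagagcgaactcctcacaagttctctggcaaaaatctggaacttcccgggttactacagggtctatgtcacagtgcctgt
B2m: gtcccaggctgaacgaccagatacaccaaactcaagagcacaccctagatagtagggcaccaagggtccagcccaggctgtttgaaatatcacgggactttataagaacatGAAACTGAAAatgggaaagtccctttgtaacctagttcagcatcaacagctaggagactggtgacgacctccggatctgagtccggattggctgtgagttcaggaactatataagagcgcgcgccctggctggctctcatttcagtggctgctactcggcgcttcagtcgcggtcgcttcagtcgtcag
The motif began at -59 in Gbp2 and at -139 in B2m. It was in 16 of 24 windows (66.7%) of the interferon list, in 4 of 17 (23.5%) of the class I list and in 3.34% of all windows. The class I share was near that of the cytosolic ribosomal protein list, 6 of 28 windows (21.4%).

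**Figure D4:**
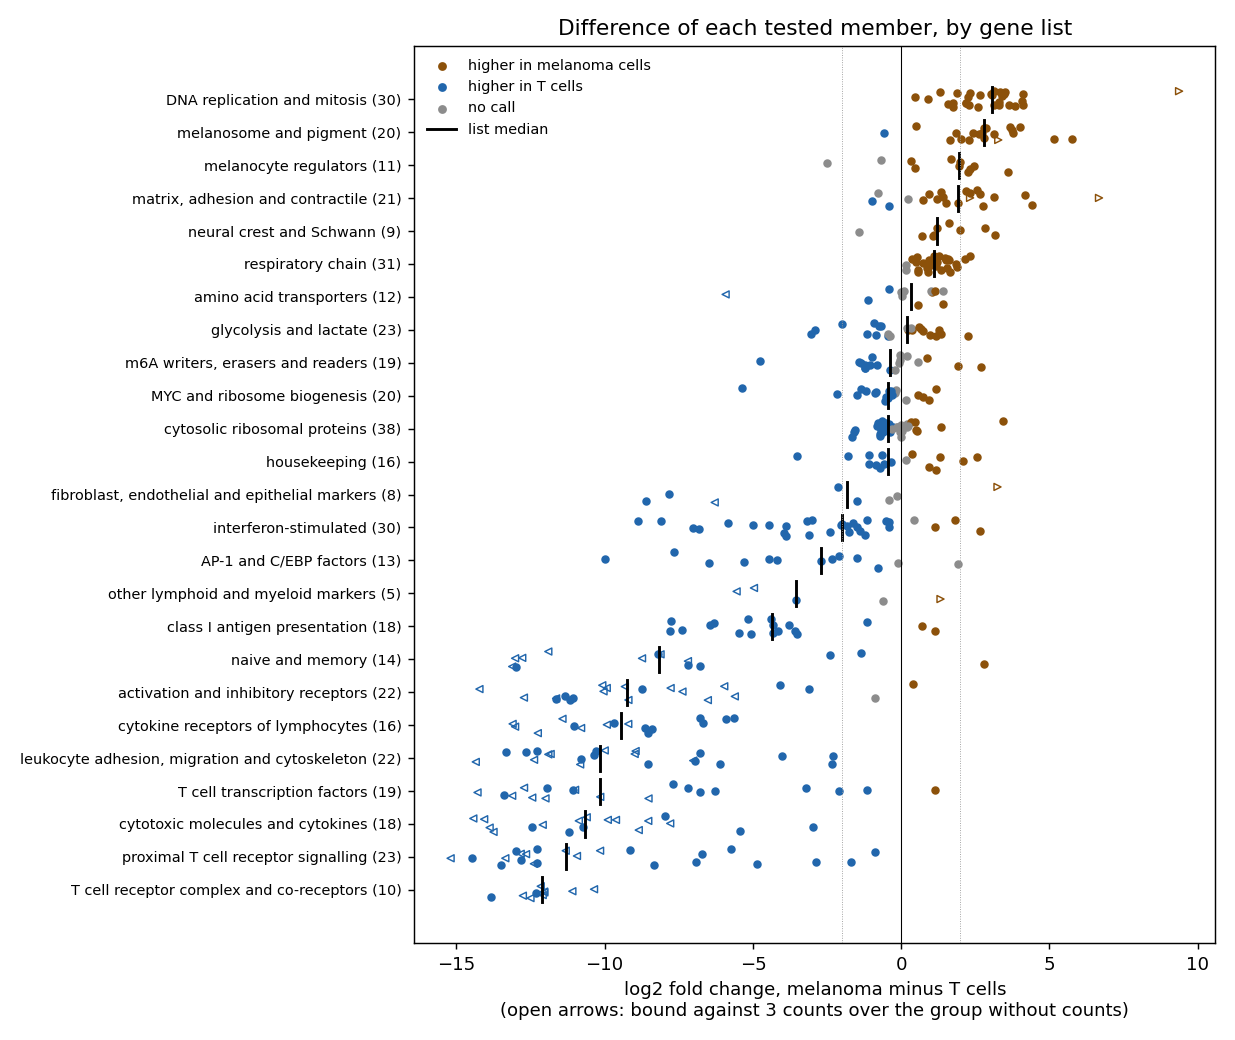
Log2 fold change of each tested member of the 25 gene lists, tumour minus T cells, ordered by list median (black bars) with the number tested in brackets; brown points were higher in melanoma cells, blue points higher in T cells and grey points had no call. Open arrows are bounds for genes without counts in 1 group, and the list medians run from 3.06 for DNA replication and mitosis to -12.12 for the T cell receptor complex.

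All 30 DNA replication and mitosis genes were higher in tumour cells, 23 at least 4-fold, with a median of 3.06. Mcm2, part of the replicative helicase, gave 790.2, 728 and 752 CPM in tumour cells and 91.3 and 89.3 CPM in T cells (3.07, SE 0.111). The mitotic kinesin Kif20a (means of 300.2 and 17.5 CPM, 4.12), the kinase Plk1 (195 and 11.2 CPM, 4.11) and the anaphase activator Cdc20 (206 and 12.1 CPM, 4.09) had wider gaps. Ccna2, which encodes cyclin A2, gave 239.6, 249.5 and 229 CPM in tumour cells and no count in either T cell library. Summed over the list, the T cell libraries reached 18.2% and 20.3% of the tumour mean, beside 10.5% and 13.7% for the pigment genes, and the part of tumour RNA in these sums was not tested. The rule for named genes also took from the tumour side, beside Ccna2, the thymidine kinase Tk1 (143, 129.8 and 154 CPM), the DNA repair gene Fanca, Atg4d, Cand2, Loxl3, Retsat, the connexin Gjb2, Foxo4, Mxd3 and Mest. These 11 had no count in T cells. In all, 102 genes at 10 CPM or more in tumour cells had no count in either control T cell library. Of these, 48, Ccna2 included, also had none in the 4 T cell libraries beside Fto knockdown cells. Whether the T cell table left out counts of such genes was not tested, and no fold is given for them.

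Of 31 nuclear genes of the respiratory chain, 29 were higher in tumour cells, 2 of them at least 4-fold, and none in T cells, with a median of 1.11. They included Cyc1 of complex III (means of 298 and 61.2 CPM, 2.31), Sdhb of complex II (453 and 101 CPM, 2.15), Ndufv1 (1.89) of complex I and Atp5b of the ATP synthase (1535 and 532 CPM, 1.53). Of 23 glycolysis and lactate genes, 10 were higher in tumour cells and 9 in T cells, with a median of 0.21, shares close to the 38.8% and 40.4% of all tested genes. The lactate dehydrogenase Ldhb (2.26) and the mutase Pgam1 (1.27) were on the tumour side. On the T cell side were the glucose transporter Slc2a3 (30.4 and 249.8 CPM, -3.04), Pdk1, which keeps pyruvate from the mitochondrial citrate cycle (39.9 and 299 CPM, -2.91), and Pfkfb3, an activator of phosphofructokinase (-1.99).

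Of 20 MYC and ribosome biogenesis genes, 13 were higher in T cells and 4 in tumour cells, with a median of -0.43. Myc itself gave 209.8, 205 and 199 CPM in tumour cells and 972 and 875 CPM in T cells (-2.17, SE 0.0941). The nucleolar genes Wdr43 (-1.48), Ddx21 (-1.35) and Gnl3 (-1.17) went with it, whereas Nop2, a nucleolar methyltransferase, was higher in tumour cells (1.17). Of 38 cytosolic ribosomal protein genes, 22 were higher in T cells, 6 in tumour cells and 10 had no call, with a median of -0.45. Rpl5 (-1.66), Rps24 (-1.61) and Rps23 (-1.54) were among the former and Rps2 (1.34) among the latter. Such genes share sequence with many pseudogenes, so single members are uncertain. Of 16 housekeeping genes, 6 were higher in tumour cells and 9 in T cells. Actb (1294 and 4433 CPM, -1.78) and Ywhaz (-1.08) were on the T cell side.

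Of 13 tested AP-1 and C/EBP factors, 11 were higher in T cells, 9 at least 4-fold, and none in tumour cells, with a median of -2.71. Fos gave 2.59, 3.10 and 1.74 CPM in tumour cells and 255 and 201 CPM in T cells (-6.49), and Junb 20.8, 23.1 and 22.2 CPM against 486 and 474 CPM (-4.44). Fosb (-7.64), Fosl2 (-5.31) and Jun (-2.71), subunits of the same dimeric factor, went the same way. Of 19 m6A writers, erasers and readers, 3 were higher in tumour cells, Fto among them, and 10 in T cells, with a median of -0.39. Igf2bp1, an oncofetal reader, had means of 44.0 and 6.95 CPM (2.69). The readers Ythdf2 (-1.41), Ythdc1 (-1.36) and Ythdf3 (-1.21) and the writer subunit Zc3h13 (-1.22) were higher in T cells. Of 12 amino acid transporter genes, 4 were higher in tumour cells, including the taurine transporter Slc6a6 (1.40), Slc7a5 (1.04) and its partner chain Slc3a2 (0.58), and 3 in T cells, including the glutamine transporter Slc1a5 (-1.12).

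Of 23 pairs of related genes, 22 had both genes tested, and 11 had the first gene higher in tumour cells and the second, known from leukocytes in most pairs, higher in T cells. Rac1, a GTPase of most tissues, had means of 338 and 227 CPM in tumour and T cells (0.58), while Rac2 had no count in tumour cells and 245 and 215 CPM in T cells. The integrin beta chains Itgb1 (424 and 185 CPM, 1.19) and Itgb2 (0.374 and 165 CPM, -8.55) divided likewise, although all tumour counts of Itgb2 were in replicate 2. So did the plastins Pls3 (68.3 and 14.5 CPM, 2.08) and Lcp1, and the exchange factors Dock1 (74.7 and 22.4 CPM, 1.68) and Dock2. The kinases Src (82.9 and 9.69 CPM, 2.95) and Lck, and the phosphatases Ptpn11 (259.7 and 156 CPM, 0.73) and Ptpn6 (9.32 and 273 CPM, -4.87), followed the same division. The PI 3-kinase subunits Pik3cb (17.2 and 7.85 CPM, 0.99) and Pik3cd (31.7 and 799 CPM, -4.65) did as well.

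**Figure D5:**
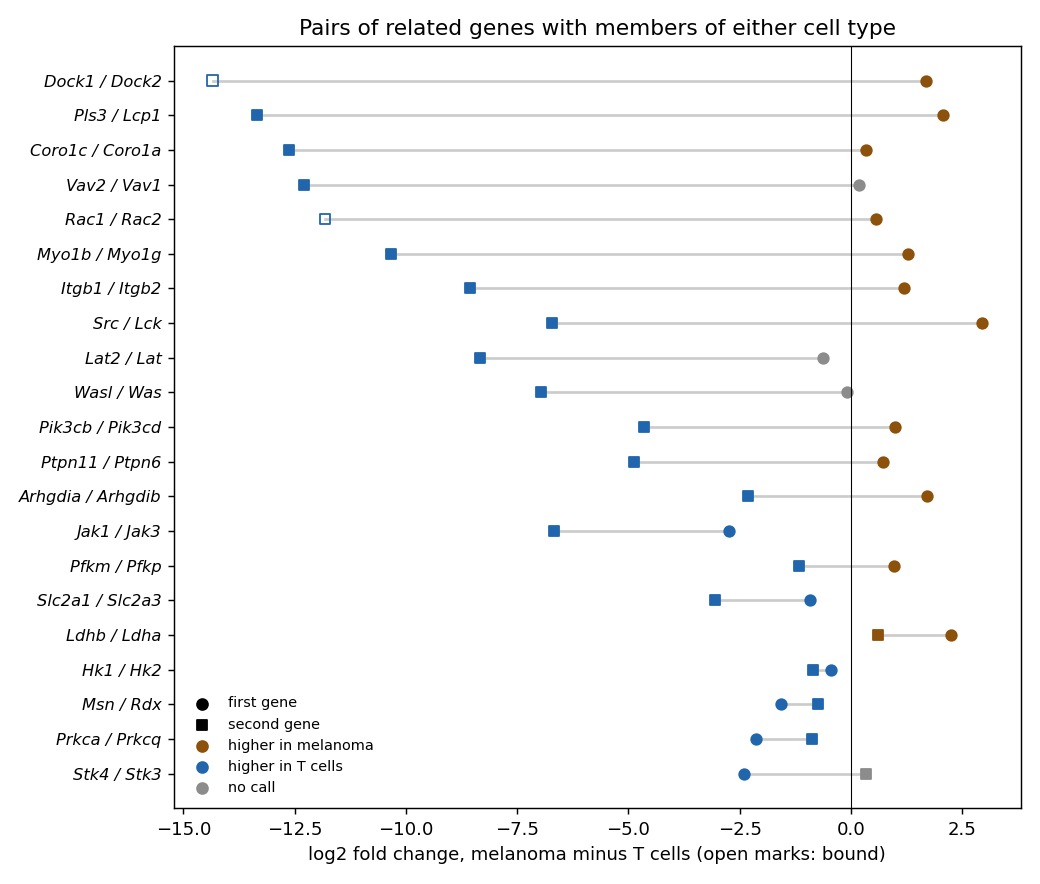
Log2 fold change, tumour minus T cells, of the first (circle) and second (square) gene of 21 pairs of related genes; brown was higher in melanoma cells, blue higher in T cells, grey had no call, and open marks are bounds. In 11 pairs the first gene lies on the tumour side and the second on the T cell side.

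Of 24 pairs of a tumour ligand or receptor and its T cell partner, 21 had both genes tested, and 4 had the first gene higher in tumour cells and the second in T cells. The shares of all tested genes higher on each side, 38.8% and 40.4%, multiply to 15.7% for a pair of unrelated genes, and nothing is read from either count of pairs. Pvrl2, which encodes nectin-2, gave 54.6, 55.9 and 55.6 CPM against 5.76 and 9.39 CPM (2.76), and its receptor gene Cd226 had no count in tumour cells and 58.4 and 64.9 CPM in T cells. Tnfrsf1a, a receptor for TNF, was also higher in tumour cells (0.44). The other 2, H60b with Klrk1 and Cxcl16 with Cxcr6, rested on tumour means of 1.25 and 0.688 CPM, and without T cell replicate 2 the count fell to 2. Cd274, which encodes the checkpoint ligand PD-L1, gave 6.08, 6.67 and 4.07 CPM in tumour cells and 477 and 543 CPM in T cells (-6.50, SE 0.157), and its receptor gene Pdcd1 no count against 15.2 and 12.8 CPM. The tumour libraries were thus low for both. The interferon gamma receptor chains Ifngr1 (15.7, 18.3 and 16.3 CPM against 814 and 874 CPM, -5.65) and Ifngr2 (-1.23) were higher in T cells, as were the adhesion ligand Icam1 (0.628 and 305 CPM, -8.83) and Tgfb1 (2.35 and 167 CPM, -6.13). The death receptor gene Fas had 2 counts over the tumour libraries and 60.1 and 61.5 CPM in T cells. Havcr2, the receptor TIM-3, had no call (means of 2.57 and 4.93 CPM, -0.89, adjusted p = 0.0937).

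Markers of other cell types were scarce. Of 23 lymphoid and myeloid markers of other lineages, 5 were tested. The 1 higher in tumour cells was Foxp3, and the 3 higher in T cells were Ms4a1, Cd79b and Itgax. The macrophage markers Adgre1 and C1qa and the globin genes Hba-a1 and Hbb-bs had no count in any of the 5 libraries, and Cd4 had 1 count over the tumour libraries and none in T cells. Ms4a1, a B cell marker, stood at 2.88 and 2.90 CPM in T cells. The whole list summed to 25.9 and 13.8 CPM in the T cell libraries and 3.10 to 4.54 CPM in the tumour libraries. Of 16 fibroblast, endothelial and epithelial markers, 8 were tested. The 1 higher in tumour cells was Col1a2. The 5 higher in T cells were Pdgfrb, Pecam1, Kdr, Tek and Epcam, 4 of them at least 4-fold. The list summed to 213.5 and 169 CPM in the T cell libraries against 12.7 to 15.3 CPM in the tumour libraries. Pecam1, an adhesion molecule that lymphocytes also carry, made up 165 and 136 CPM of the T cell sums. The part of such cells in the differences was not tested.

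m6A-seq of the shNC tumour cells, in which an antibody enriches RNA with N6-methyladenosine, gave 8479 peaks on 5305 symbols in 1 list without replicates. Of genes at 10 CPM or more in tumour cells, 47.9% had a peak. All 7 melanocyte regulators at that level had one, with 6 peaks on Zeb2, 4 on Mitf and 2 on Tfap2a. Of 18 pigment genes at that level, 12 (66.7%) had one, among them Tyr, where the authors' fold enrichment was 13.6, and Tyrp1, at most 2.72. Of 37 ribosomal protein genes 1 and of 31 respiratory chain genes none had a peak. Among genes at least 4-fold higher in T cells but still at 10 CPM or more in tumour cells, 289 of 441 (65.5%) had one, including Myc, at 14.6. With peaks of at least 4-fold enrichment these shares were 31.8% for all genes, 27.8% for pigment genes and 51.2% for genes higher in T cells. The part of transcript length and level in these shares was not tested, and T cells have no such list here.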

How the data were processed

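RNA-seq counts of 3 shNC tumour libraries and 2 libraries of T cells beside shNC tumour cells were taken from separate deposited tables, joined on 24421 shared symbols. The values are whole-number counts per gene as deposited by the authors. Per the submitters' processing notes, the tools were Trim Galore 0.6.0, STAR 2.7.0f, Bowtie2 2.3.5, Picard, deepTools, MACS2 2.1.3, with build mm10. The counting tool, strand setting and annotation are not given in the sources used here. Genes and their antisense partners therefore cannot be told apart. Peak lists hold the authors' fold enrichment (a ratio) and −log10 q as deposited, for each of 3 ATAC-seq libraries and in 1 m6A-seq list.

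Counts were fitted with edgeR 4.0.16 in R 4.3.3 (TMM scaling, quasi-likelihood test, Benjamini-Hochberg adjustment, no covariate) after edgeR's filter on low counts. A gene at 0 in a group was bounded by 3 counts over that group, which is 0.0618 CPM for tumour and 0.362 CPM for T cells. In data simulated for this comparison over 13590 genes, 200 of them were changed. There, 64% of 2-fold and 84% of 4-fold changes were recovered and 5.13% of calls were false. In the comparison itself 79.2% of genes were called, and the share of false calls with so many genes called was not tested. Alternatives were library totals, DESeq2 1.42.0 and its size factors, no filter, all 12 RNA libraries in 1 fit, the replicate number as a block, and each library left out. Tables were joined and plotted with Python 3.11.15, pandas 2.3.3, NumPy 2.4.6, SciPy 1.17.1 and Matplotlib 3.10.9.

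The comparison, its members and the gene lists were chosen with earlier results of these data known. Genes named are the 4 markers, Fto, any member of the pigment, regulator, receptor complex and other-cell lists, up to 5 members of each other list with the smallest adjusted p, members of the pairs, and the 12 largest differences each way among genes called at 50 CPM or more. A gene outside that rule is said to be named after its value was seen, and some genes within it are not reported here. Promoter windows came from RefSeq for GRCm38.p6, the same build as mm10. A window counted as open where a peak overlapped it in all 3 libraries. Transcript lengths were not used, so levels are not compared between genes.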

Additional observations from a re-analysis of the deposited data

How the results depend on the processing

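Genes higher in tumour cells numbered 4805 to 5187 and genes higher in T cells 4419 to 5328 with each library left out in turn, and genes at least 4-fold higher 1742 to 2020 and 2108 to 2757. The T cell counts were lowest without T cell replicate 2, which leaves 1 T cell library that is assumed to vary like the tumour libraries. Among all calls, 49% were higher in tumour cells, and 44.4% to 55.1% under the alternatives. Without a filter on low counts, 4490 genes were at least 4-fold higher in T cells. Among genes at 10 CPM or more in the higher group, an alternative chosen after seeing the data, 1255 were at least 4-fold higher in tumour cells and 1326 in T cells. Of 276 alternative counts of list members, 274 stayed within 1.5 times the count given. The others were the fibroblast, endothelial and epithelial markers higher in T cells, 9 without a filter and 3 with the replicate block. Ligand-receptor pairs divided between the cell types fell to 2 without T cell replicate 2. The causes of these shifts were not tested.

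Replicate numbers are shared by the labels of both groups, and the correlation of deviations between tumour and T cell libraries lay from -0.0162 to 0.0162. With 2 T cell libraries the deviations of 1 mirror those of the other. The check therefore cannot tell whether libraries of the same number shared a culture or day. With the number as a block, 4610 genes were higher in tumour cells and 4807 in T cells, 1730 and 2597 of them at least 4-fold, and 2 ligand-receptor pairs were divided.

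The share of open promoters among genes at least 4-fold higher in tumour cells was 90.6% with 1 kb on either side of the start, 79.4% with peaks at −log10 q of at least 10, 87.0% with a peak in at least 1 library and 80.0% with an overlap of 100 bases. For genes at least 4-fold higher in T cells it was 42.9%, 34.9% and 42.0% under the first 3 of these, and for pigment genes 92.9% with 1 kb. For genes counted in T cells and not in tumour cells it was 3.30% to 7.69% under the 4 alternatives. With m6A peaks of at least 4-fold enrichment, the share with a peak was 31.8% for all genes, 27.8% for pigment genes, 0.0% for ribosomal protein genes and 51.2% for genes higher in T cells. The depth of the T cell libraries sets the limit that a count of 0 allows there at 0.362 CPM, for counting error only.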

Other observations

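Gene families grouped by symbol after the data were seen gave further differences, to be read against the 38.8% and 40.4% of all genes called in each direction. Of 8 tested plexins, receptors for semaphorins, 6 were higher in tumour cells, each at least 4-fold, and none in T cells, with a median log2 fold change of 2.89. Plxnd1 gave 1560, 1574 and 1394 CPM against 170.3 and 168 CPM (3.16) and Plxna1 913, 879 and 800.2 CPM against 76.1 and 94.1 CPM (3.32). Of 20 tested subunits of the V-ATPase, the proton pump of lysosomes and melanosomes, 15 were higher in tumour cells and 3 in T cells, with a median of 1.16. On the T cell side, all 8 GIMAP GTPases of lymphocytes and all 10 tested guanylate-binding proteins were at least 4-fold higher. So were the 3 NR4A receptors, immediate targets of T cell receptor signals: Nr4a1 gave 45.7, 55.0 and 47.0 CPM in tumour cells and 1549 and 1430 CPM in T cells (-4.92), and Nr4a3 70.1, 72.3 and 67.3 CPM against 2347 and 2395 CPM (-5.08). Of 7 STAT factors all 7 were higher in T cells, 6 at least 4-fold, with a median of -2.56. The 5 KMT2 histone methyltransferases were also all higher in T cells, 4 at least 4-fold, and of 336 tested Zfp zinc finger genes 179 were higher in T cells and 56 in tumour cells (median -0.83).

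Some noncoding and sex-linked genes were looked up after the data were seen. Malat1, a nuclear noncoding RNA, gave 672, 718 and 658 CPM in tumour cells and 18528 and 20174 CPM in T cells (-4.83), and the nuclear RNA Neat1 differed in the same direction (-3.26). Xist, the RNA of the inactive X chromosome, gave 0, 0.160 and 0.323 CPM in tumour cells and 625 and 783 CPM in T cells. The Y-linked genes Ddx3y, Eif2s3y, Kdm5d and Uty had no count in any of the 5 libraries.

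Of the 259 genes at 10 CPM or more in T cells without a count in the control tumour libraries, 211 also had none in the 3 Fto knockdown tumour libraries. Of the 102 genes without a count in the control T cell libraries, 54 were counted in at least 1 of the 4 other T cell libraries.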
